A study of Homo sapiens with 2 samples.

Results

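The aryl hydrocarbon receptor axis was described here as 9 genes of the 20289 in the deposited table, found by their symbols: the receptor AHR, its partners ARNT and ARNT2, its co-chaperone PTGES3, its repressor AHRR, and the target genes TIPARP, CYP1A1, CYP1B1 and ALDH3A1. The group was chosen with earlier results of these same libraries known, in which AHRR and CYP1B1 already stood out as low, so their ratios are a description and carry no test. RNA came from MDA-MB-231, an established human breast cancer line without estrogen and progesterone receptors. The cells received either an siRNA against the long non-coding RNA USP30-AS1 (1 library, called the knockdown library) or a negative control siRNA (1 library, called the control library). The labels give neither the siRNA dose nor the time of treatment. USP30-AS1 itself was not analysed here, and its silencing was therefore not checked. With 1 library per group no difference below has a replicate check, and there is no p-value between the groups. In bulk RNA, fewer cells of a type and less RNA per cell cannot be told apart.

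AHR is a ligand-activated transcription factor of the bHLH-PAS family. In the cytoplasm it is held by HSP90 and the co-chaperone p23 (encoded by PTGES3). After binding dioxin-like compounds, polycyclic aromatic hydrocarbons or tryptophan metabolites it enters the nucleus, pairs with ARNT, and binds xenobiotic response elements whose core reads GCGTG. The classical targets are the cytochrome P450 enzymes CYP1A1 and CYP1B1, which oxidise the ligands. The feedback regulators AHRR and TIPARP are also targets: AHRR competes with AHR for ARNT and for DNA, and TIPARP ADP-ribosylates the receptor.

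Proximal promoters are shown because AHR binds elements with the GCGTG core. Whether AHR reaches these genes through cores in these windows, or through sites outside them, was not tested. RefSeq promoter windows (GRCh38.p14) ran from 250 bases before to 50 bases after an annotated start, and were matched for 6 of the 9 genes: AHR, ARNT, PTGES3, AHRR, TIPARP and CYP1A1. The core GCGTG, searched on both strands, is in capitals and reads CACGC where it lies on the other strand. CYP1A1 (chr15:74725479-74725778, minus strand) had 1 core, from 57 to 53 bases before the start. AHRR had windows at separate starts, the upstream one (chr5:321464-321763, plus strand) with 1 core, 30 to 26 bases before the start, and the downstream one (chr5:322360-322659) with 2, the nearer of them 42 to 38 bases before the start.
CYP1A1: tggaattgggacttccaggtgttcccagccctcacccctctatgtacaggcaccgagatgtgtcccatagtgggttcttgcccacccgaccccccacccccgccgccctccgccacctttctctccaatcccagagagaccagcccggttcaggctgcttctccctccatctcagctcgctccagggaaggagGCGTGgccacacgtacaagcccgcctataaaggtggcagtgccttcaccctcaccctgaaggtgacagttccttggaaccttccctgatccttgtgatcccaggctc
AHRR upstream start: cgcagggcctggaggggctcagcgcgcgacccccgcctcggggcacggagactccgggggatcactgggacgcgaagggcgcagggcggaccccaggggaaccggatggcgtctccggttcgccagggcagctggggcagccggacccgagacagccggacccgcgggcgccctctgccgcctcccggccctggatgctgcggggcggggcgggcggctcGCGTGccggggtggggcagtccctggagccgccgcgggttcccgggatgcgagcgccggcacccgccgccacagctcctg
AHRR downstream start: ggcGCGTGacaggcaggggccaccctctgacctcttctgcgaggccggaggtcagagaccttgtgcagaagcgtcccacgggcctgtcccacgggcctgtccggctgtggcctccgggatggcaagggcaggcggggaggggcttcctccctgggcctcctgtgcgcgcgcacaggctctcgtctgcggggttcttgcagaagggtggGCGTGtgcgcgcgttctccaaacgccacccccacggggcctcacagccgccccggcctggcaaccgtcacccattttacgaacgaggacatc

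TIPARP, AHR and PTGES3 are shown by the bases around their cores only. TIPARP had 2 cores in the first of its 3 windows (chr3:156674340-156674639, plus strand), AHR had 1 core behind its start (chr7:17298402-17298701, plus strand), and PTGES3 had 3 (chr12:56688235-56688534, minus strand), of which the first is shown. The ARNT window held none, which says only that these letters are not in it.
TIPARP, 208 to 204 bases before the start: agaaaggaCACGCcccctcgc
TIPARP, 142 to 138 bases before the start: cgaacgcgCACGCgcgcgcag
AHR, bases 38 to 42 from the start: ttccgagaGCGTGccccggac
PTGES3, 54 to 50 bases before the start: ggactgcgCACGCgcggcggc

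The core is common: it lay in 36.5% of all 35116 RefSeq promoter windows of this length, and 12.7% held 2 or more. The longer form TNGCGTG, which contains the core, lay in 5.51% of the windows and, among these genes, only in the upstream AHRR window. A match is a description of the letters and not evidence of binding. The core was present in windows of AHRR, among the lowest genes, and of CYP1A1, above its control level, and also of AHR, PTGES3 and TIPARP. CYP1B1, the other low gene, had no window here. Whether the core has a part in any of these differences was not tested.

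The knockdown library held 19569228 counts and the control library 23287829. In the knockdown library 14742 genes were above 0, against 15050 in the control library. Counts were scaled to counts per 1000000 (CPM) with TMM factors, and a gene was compared if its mean over both libraries was at least 50 counts, which 11530 genes reached. All 7 markers expected in this line, such as VIM and EGFR, lay between 46.6 and 1190 FPKM in the knockdown library and between 35.5 and 840 FPKM in the control library. FPKM is the deposited measure of level, normalized for transcript length and depth. Of the 5 markers listed as low or absent in this line, ESR1 and PGR lay at 0.12 and 0 FPKM in the knockdown library. In the control library they lay at 0.07 and 0 FPKM. CDH1 lay at 0 FPKM in the knockdown library and 0.11 in the control library, and EPCAM at 1.57 and 1.36. ERBB2 was not low in that sense, at 19.3 FPKM in the knockdown library and 16.3 FPKM in the control library, and reached 50 counts. Of 20 markers of leukocytes, endothelium, fibroblasts, hepatocytes and red cells, CD68, PECAM1, COL1A1 and SERPINA1 reached 50 counts. The summed FPKM of the leukocyte markers was 49.9 in the knockdown library and 31.6 in the control library, nearly all of it CD68, while PTPRC had 0 counts in the knockdown library and 2 in the control library, and CD3E had 0 in both. The endothelial sum was 1.37 FPKM in the knockdown library and 3.02 FPKM in the control library, with CDH5 at 8 counts in the knockdown library and 91 in the control library, and VWF at 0 counts in the knockdown library and 1 in the control library. The fibroblast sum was 4.1 FPKM in the knockdown library and 2.64 FPKM in the control library, the hepatocyte sum 4.03 FPKM in the knockdown library and 3.39 FPKM in the control library, and the red cell sum 0 FPKM in the knockdown library and 0.17 FPKM in the control library. The part of these markers in the results below was not tested.

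Of the 9 genes, 8 passed the floor of 50 counts, and ALDH3A1 did not. At least 2-fold lower in the knockdown library were 2 of the 8, AHRR and CYP1B1, beside 1.6% of all compared genes (185 genes), and 0 of the 8 were at least 2-fold higher, beside 1.55%. Because the group was chosen with the AHRR and CYP1B1 ratios known, nothing is read from that count. The median log2 ratio of the 8 was -0.18, and that of all compared genes was -0.00366. Without AHRR and CYP1B1 the median of the other 6 was -0.10, with 4 below 0 and 2 above.

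**Figure D1:**
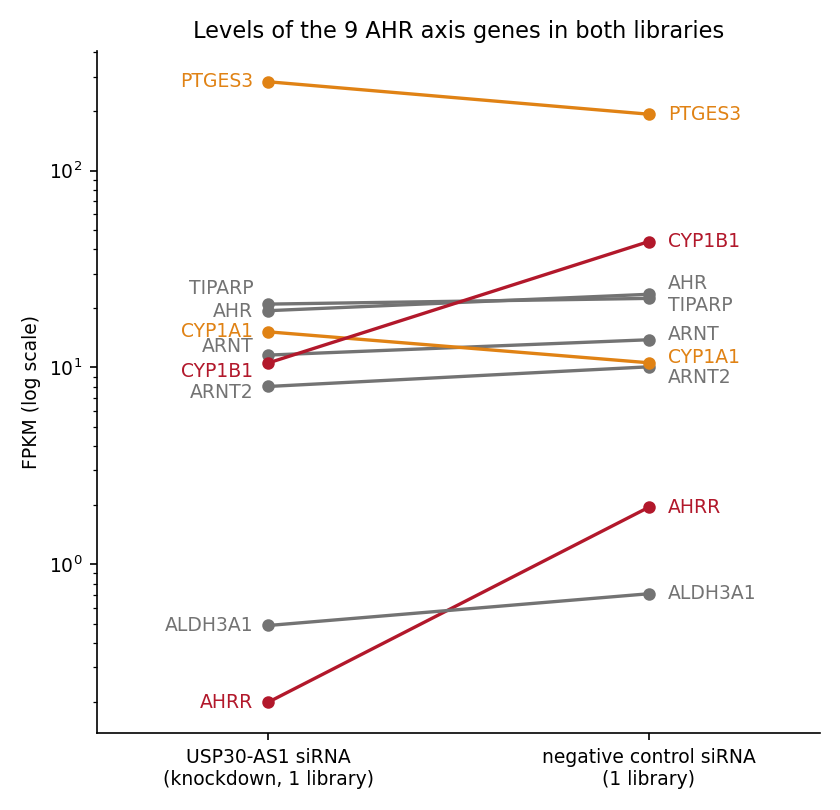
Deposited FPKM (log scale) of the 9 genes in the knockdown library (left) and the control library (right), 1 library each and so without error bars; lines join the values of 1 gene, red for AHRR and CYP1B1, orange for CYP1A1 and PTGES3, grey for the others. AHRR lies at 0.2 FPKM in the knockdown library against 1.95 in the control library, and the lines of CYP1B1 and CYP1A1 cross.

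The receptor and its partners kept most of their level. AHR had 1968 counts in the knockdown library and 2785 in the control library, which is 102 CPM in the knockdown library and 118 CPM in the control library. The knockdown level was 0.870 of the control level (95% exact counting interval 0.821 to 0.922, as for the intervals below, which cover counting error only). ARNT, the partner that AHR needs for DNA binding and that also serves the hypoxia factors, had 942 counts in the knockdown library and 1302 in the control library, a ratio of 0.891 (0.818 to 0.969). ARNT2, the paralogue best known from neural tissue, had 1024 counts in the knockdown library and 1531 in the control library, a ratio of 0.823 (0.760 to 0.892). The intervals of all 3 lay below 1, and 21.7% (ARNT2) to 31.2% (ARNT) of all compared genes had a lower ratio. In FPKM, which allows a comparison between genes, AHR stood at 19.4 in the knockdown library and 23.5 in the control library, ARNT at 11.6 in the knockdown library and 13.8 in the control library, and ARNT2 at 8.01 in the knockdown library and 10.1 in the control library.

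The co-chaperone PTGES3 went the other way. It was the most abundant of the 9 genes, with 282 FPKM in the knockdown library and 193 FPKM in the control library. Its counts were 10034 in the knockdown library and 8179 in the control library. The ratio of scaled counts was 1.51 (1.47 to 1.56), short of 2-fold, and 671st from the highest of 11530 genes. HSP90AA1, the inducible HSP90 isoform of the same complex, had 60641 counts in the knockdown library and 41746 in the control library, a ratio of 1.79 (1.77 to 1.81). HSP90AB1, the constitutive isoform, had 40504 counts in the knockdown library and 42446 in the control library, a ratio of 1.17 (1.16 to 1.19). With library totals alone or in FPKM, PTGES3, HSP90AA1 and HSP90AB1 each lay below these intervals, which leave out the choice of scaling. The PTGES3 log2 ratio of 0.594 was 0.545 with library totals and 0.547 in FPKM.

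AHRR, the repressor, was the lowest of the group and the 7th lowest of all 11530 compared genes. Its estimated count was 19.35 in the knockdown library (19 after rounding) and 232 in the control library. That is 0.987 CPM in the knockdown library and 9.80 CPM in the control library. It was 9.92-fold lower in the knockdown library (6.21 to 16.8), with a log2 ratio of -2.79. The wide interval follows from the 19 counts. AHRR was scarce to begin with: the deposited FPKM was 0.2 in the knockdown library and 1.95 in the control library, the 10717th highest FPKM of the control library. The number of AHRR counts per AHR count was 0.00965 (0.00580 to 0.0151) in the knockdown library and 0.0833 (0.0725 to 0.0953) in the control library, a comparison that needs no scaling between libraries.

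CYP1B1 and CYP1A1, the 2 classical P450 targets, lay on opposite sides. CYP1B1, which oxidises estrogens and polycyclic hydrocarbons, had 883 counts in the knockdown library and 4316 in the control library, or 45.9 CPM in the knockdown library and 182 CPM in the control library. It was 3.97-fold lower in the knockdown library (3.69 to 4.27), with a log2 ratio of -1.98, and the 14th lowest of the compared genes. CYP1A1, the most widely used readout of AHR activity, had 589 counts in the knockdown library and 431 in the control library, or 30.6 CPM in the knockdown library and 18.2 CPM in the control library. Its ratio was 1.68 (1.48 to 1.91), with an interval above 1, short of 2-fold, and 411th from the highest. The CYP1A1 log2 ratio of 0.73 was 0.52 in FPKM, outside the counting interval. The counts per FPKM of CYP1A1 were 13.3% higher in the knockdown library than the median gene's shift would give, which means a longer effective transcript length in the authors' estimate there. Of 11528 genes, 10.2% shifted at least as far, and the other 7 compared members shifted between -3.20% (AHRR) and 3.04% (ARNT).

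**Figure D2:**
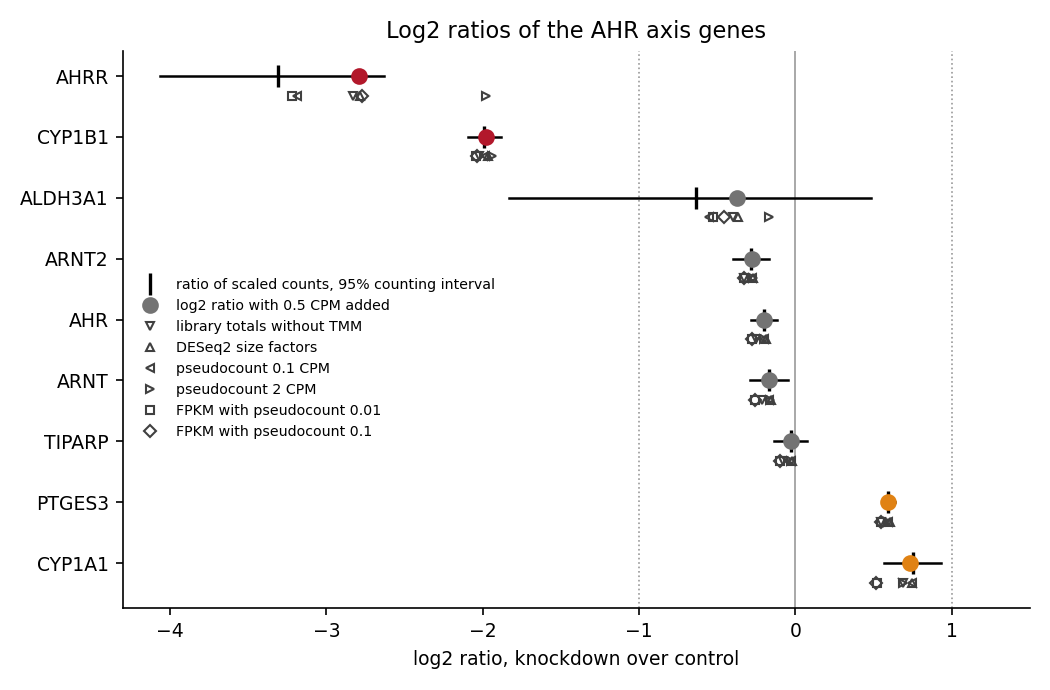
Log2 ratio of each of the 9 genes, knockdown over control: large dots are the ratios with 0.5 CPM added, black ticks and bars the ratio of scaled counts without it and its 95% counting interval, small open symbols 6 other settings, dotted lines 2-fold. AHRR and CYP1B1 lie beyond 2-fold on the low side in every setting drawn, and with 2 CPM added AHRR lies at -1.98 and CYP1B1 at -1.94, while PTGES3 and CYP1A1 stay between 0 and 1.

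The balance of the 2 enzymes within a library also differed. CYP1B1 had 1.5 counts for each CYP1A1 count (1.35 to 1.67) in the knockdown library and 10.01 (9.07 to 11.1) in the control library. Per transcript length, CYP1B1 was below CYP1A1 in the knockdown library, at 10.6 against 15.2 FPKM (a ratio of 0.695). In the control library CYP1B1 was above CYP1A1, at 43.6 against 10.6 FPKM (a ratio of 4.12). Set against AHR, CYP1B1 had 0.449 counts per AHR count (0.414 to 0.486) in the knockdown library and 1.55 (1.48 to 1.63) in the control library. CYP1A1 had 0.299 (0.273 to 0.328) per AHR count in the knockdown library and 0.155 (0.140 to 0.171) in the control library.

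**Figure D3:**
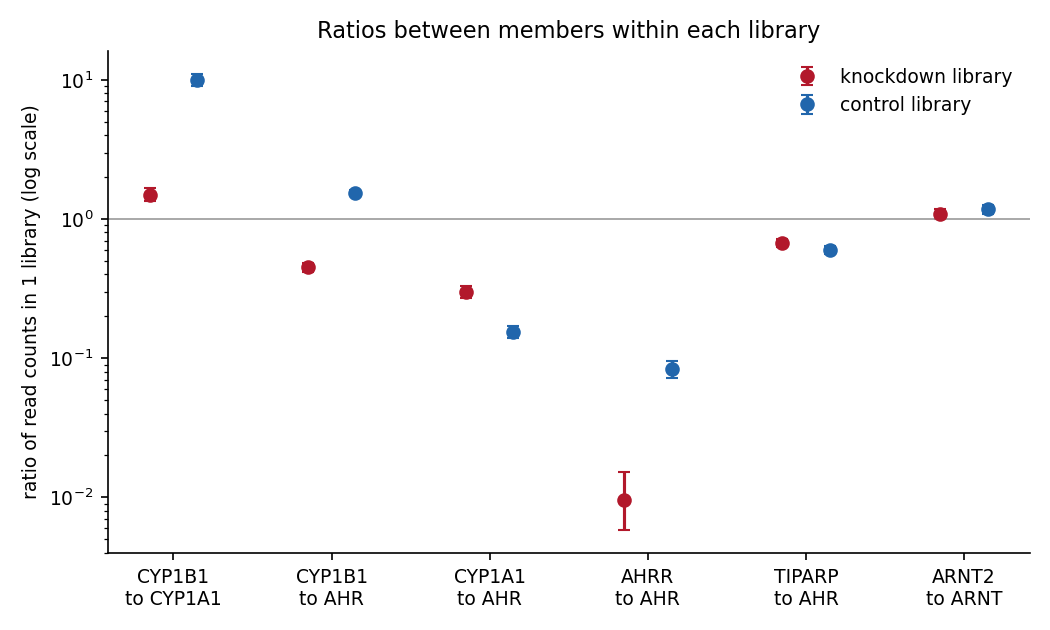
Ratio of the read counts of 2 genes within 1 library (log scale), in the knockdown library (red, left of each pair) and the control library (blue, right), with 95% exact counting intervals. CYP1B1 to CYP1A1 lies at 1.5 in the knockdown library against 10.01 in the control library and AHRR to AHR at 0.00965 against 0.0833, while TIPARP to AHR (0.675 against 0.60) and ARNT2 to ARNT (1.09 against 1.18) lie close together.

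Of the remaining targets, TIPARP did not follow AHRR and CYP1B1, and ALDH3A1 had too few counts to tell. TIPARP, the feedback ADP-ribosyltransferase, had 1328 counts in the knockdown library and 1670 in the control library, a ratio of 0.979 with an interval that includes 1 (0.910 to 1.05). In FPKM it stood at 21.0 in the knockdown library and 22.4 in the control library, which made it the second highest of the 9 genes in the knockdown library and the fourth in the control library. ALDH3A1, an aldehyde dehydrogenase of the AHR gene battery, had 11 counts in the knockdown library and 21 in the control library. Its ratio of 0.645 had an interval of 0.281 to 1.40, so no difference was detectable at this depth.

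By FPKM the order in the knockdown library was PTGES3, TIPARP, AHR, CYP1A1, ARNT, CYP1B1, ARNT2, ALDH3A1 and AHRR. In the control library it was PTGES3, CYP1B1, AHR, TIPARP, ARNT, CYP1A1, ARNT2, AHRR and ALDH3A1. Several neighbours in that order were close, such as AHR and TIPARP in both libraries, and with 1 library per group their order has no replicate error behind it.

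**Figure D4:**
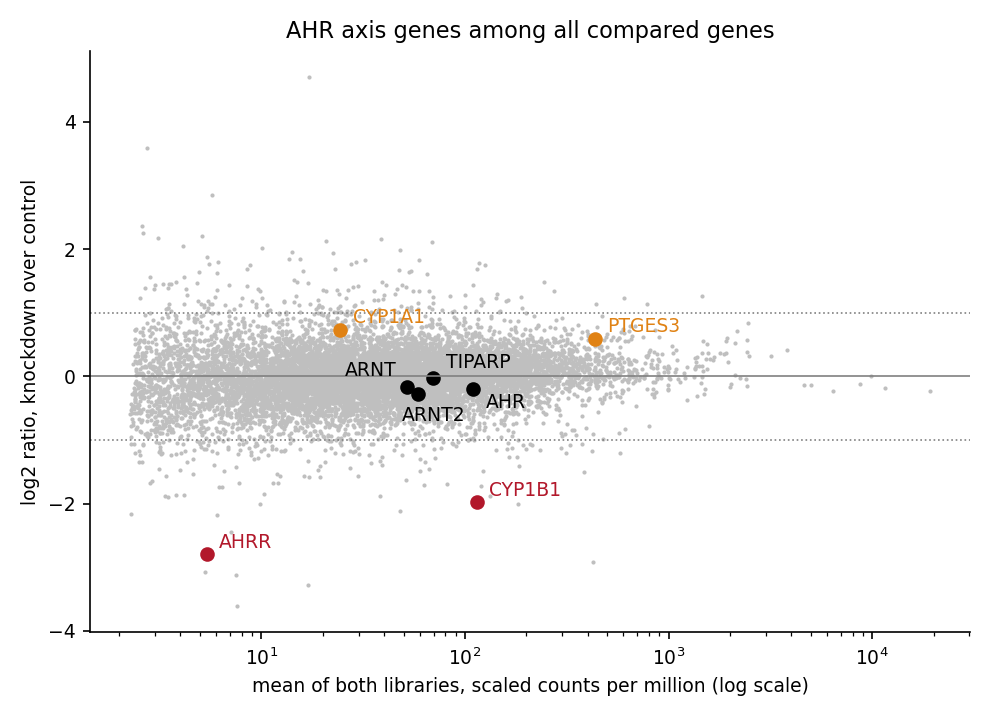
Log2 ratio (knockdown over control) against the mean level in scaled CPM (log scale) for the 11530 compared genes (grey), with the 8 compared members labelled (red for AHRR and CYP1B1, orange for CYP1A1 and PTGES3, black for the others) and 2-fold marked by dotted lines. AHRR (-2.79) and CYP1B1 (-1.98) lie outside the cloud at low and high expression, and the other 6 lie inside 2-fold.

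The genes around AHRR and CYP1B1 were compared to see whether the difference extended along the chromosome. AHRR spans 304176 to 438291 on the plus strand of chromosome 5 (GENCODE 29, GRCh38) and shares 49681 bases of that span with PDCD6, a calcium-binding protein gene on the same strand. PDCD6 had 1167 counts in the knockdown library and 1643 in the control library, a ratio of 0.874 (0.810 to 0.943). The PDCD6 estimates in both libraries and the AHRR estimate in the knockdown library were not whole numbers, as happens where reads fit more than 1 gene. The nearest compared genes on each side, CCDC127, SDHA, EXOC3 and SLC9A3, had ratios between 0.759 (CCDC127) and 1.04 (SDHA). SDHA, EXOC3 and SLC9A3, which share no bases with the AHRR span, also had estimates that were not whole in both libraries. The AHRR estimate in the control library was whole. Whether AHRR and PDCD6 shared reads is therefore not known. CYP1B1 spans 38066973 to 38109902 on the minus strand of chromosome 2, where its end shares 170 bases with RMDN2 on the opposite strand. RMDN2 had 78 counts in the knockdown library and 119 in the control library, a ratio of 0.807 (0.598 to 1.08). QPCT, CDC42EP3, ATL2 and HNRNPLL, the nearest compared genes on each side, had ratios between 0.851 (HNRNPLL) and 1.02 (QPCT). None of these 10 genes came near the ratios of AHRR (0.101) or CYP1B1 (0.252).

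Strand was not stated for the counting, so reads of antisense genes cannot be told apart from those of the gene they overlap. CYP1B1-AS1 shares 36456 bases of the CYP1B1 span and TIPARP-AS1 1144 bases of the TIPARP span, and neither was analysed here. Antisense transcripts are also annotated across parts of AHR, ARNT2 and ALDH3A1. By the difference in log2 ratio over these 2 libraries, the genes nearest to AHRR (-2.79) were LEFTY1 (-2.79), MUC5AC (-2.92) and SERF1A (-3.07, a gene with a near-identical copy). Nearest to CYP1B1 (-1.98) were JUP (-2.00), SLC6A19 (-2.01) and KLRC3 (-1.89, one of a family of close copies).

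Gene lists of the wider pathway were written with earlier results known, and their counts stand beside the 1.6% lower and 1.55% higher among all compared genes, and a list of 10 to 25 genes with none past 2-fold is near that background. Among 16 compared genes of 25 listed as further AHR targets, 0 were 2-fold lower and 0 were 2-fold higher, and the median log2 ratio was -0.01, or -0.06 with library totals alone. NQO1, the quinone reductase of the AHR and NRF2 batteries, had 8632 counts in the knockdown library and 8518 in the control library, a ratio of 1.25 (1.21 to 1.29). AREG, an EGFR ligand, was 1.82-fold higher (1.46 to 2.28) and SLC7A11, the cystine transporter, 1.56-fold higher (1.42 to 1.72). LPCAT2, a lysophospholipid acyltransferase, was 1.57-fold lower (1.38 to 1.79), and its log2 ratio of -0.64 was -0.42 in FPKM, outside that interval. PTGS2, the inducible cyclooxygenase, had only 85 counts in the knockdown library and 63 in the control library, a log2 ratio of 0.64 that was 1.298, past 2-fold, in FPKM. UGT1A1, UGT1A6, GSTA1, GSTA2 and SERPINB2 had 0 counts in both libraries, and the upper limit behind such a 0 (3 counts) is 0.156 CPM in the knockdown library and 0.127 CPM in the control library. Other listed targets also lay under the floor and were not compared. IL1B had 18 counts in the knockdown library and 3 in the control library, a ratio of 7.39 (2.16 to 39.1). VAV3 had 21 in the knockdown library and 9 in the control library, a ratio of 2.87 (1.26 to 7.12). IL6 had 9 in the knockdown library and 19 in the control library, a ratio of 0.583 (0.232 to 1.35).

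Of the chaperone and turnover genes, 10 of 10 were compared, none reached 2-fold, and the median log2 ratio was 0.22. HSP90AA1 was the highest of them at 0.84, followed by CUL4B, the scaffold of a ubiquitin ligase in which AHR can act, at 0.29, and XPO1, the nuclear export receptor, at 0.27. The 19 coactivators and corepressors had a median of -0.11, with none at 2-fold. NCOA1, a histone acetyltransferase coactivator, was 1.62-fold lower (1.502 to 1.76) and MED1, a Mediator subunit, 1.33-fold higher (1.28 to 1.38). ANKRA2, which is known to join AHRR to its corepressors, had 99 counts in the knockdown library and 182.89 in the control library, a log2 ratio of -0.54.

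Among the bHLH-PAS relatives and PAS proteins 13 of 18 were compared, with a median of -0.12 and none at 2-fold. NPAS2, a circadian partner of BMAL1, was 1.88-fold lower (1.77 to 2.01), and its log2 ratio of -0.91 was -1.08 in FPKM. HIF1A, which shares ARNT with AHR, had 12390 counts in the knockdown library and 12383 in the control library, a ratio of 1.23 (1.201 to 1.26) after scaling. SIM2, a developmental factor that also pairs with ARNT, lay at -0.71, which was -1.12 in FPKM, and PER2, a clock repressor, lay at -0.57. NPAS2 and SIM2 thus passed 2-fold in FPKM and not in scaled counts.

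Genes that supply or clear tryptophan-derived ligands numbered 11 compared of 20 listed, with a median of -0.00416 (0.0052 with DESeq2 size factors) and none at 2-fold. IDO1 had 0 counts in the knockdown library and 1 in the control library. TDO2 had 7 in the knockdown library and 5 in the control library. IDO2 had 0 in both, so the enzymes that open the kynurenine route were at or near 0. IL4I1, which is not one of them, also had 0 counts in both libraries. KYNU, which cleaves kynurenine, had 1071 counts in the knockdown library and 1124 in the control library. KYAT3 was 1.55-fold lower (1.42 to 1.69), SLC7A5, which imports tryptophan, 1.48-fold lower (1.40 to 1.55), and AADAT 1.68-fold higher (1.34 to 2.10). Both KYAT3 and AADAT convert kynurenine to kynurenic acid.

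Oxidation and conjugation enzymes had 25 compared of 32 listed, with a median of 0.13 (0.08 with library totals alone) and none at 2-fold. POR, the reductase that feeds electrons to CYP1A1 and CYP1B1, had 942 counts in the knockdown library and 1202 in the control library, a ratio of 0.965 with an interval that includes 1 (0.885 to 1.05). CYB5B, a mitochondrial cytochrome b5, was 1.67-fold lower (1.56 to 1.78) and CBR3, a carbonyl reductase, 1.76-fold higher (1.42 to 2.20). The table held 56 cytochrome P450 genes, of which 12 were compared and 1, CYP1B1, was at least 2-fold lower, beside 1.6% of all compared genes. CYP1B1 is also a gene the group was chosen on, so nothing is read from that count. The other 10 apart from CYP1A1 ran from -0.51 (CYP2U1) to 0.47 (CYP26B1, which was 0.71 in FPKM). CYP1A2, the third member of the CYP1 family, had 2 counts in the knockdown library and 1 in the control library.

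**Figure D5:**
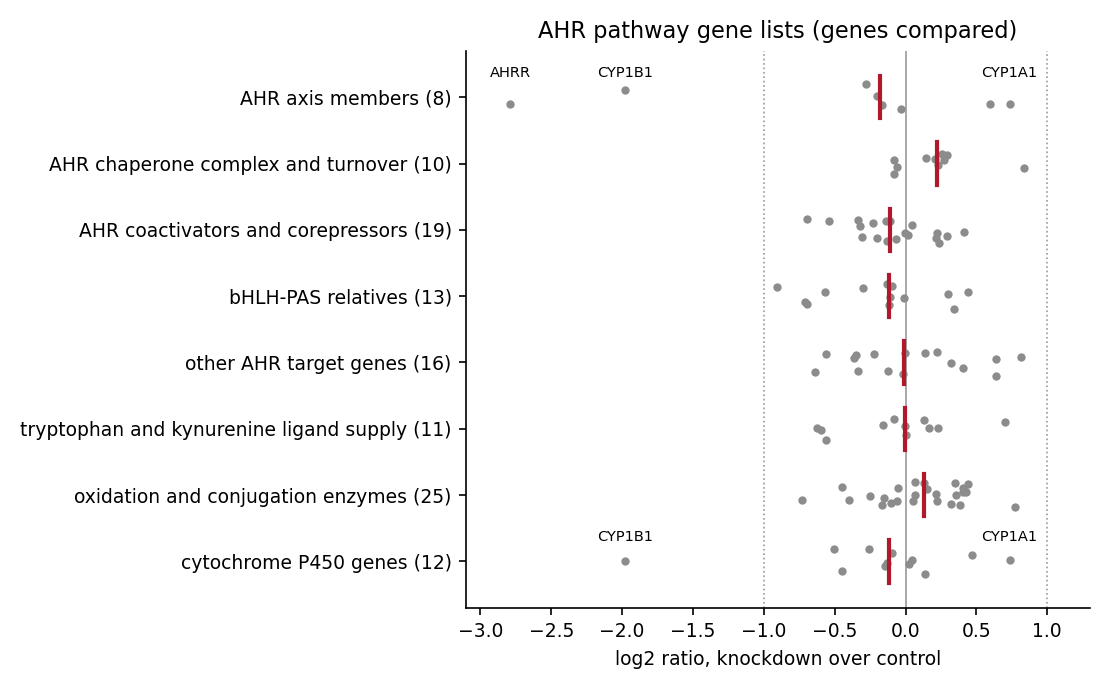
Log2 ratios (knockdown over control) of the compared genes of each list, 1 grey dot per gene with vertical jitter, red bars for the medians, dotted lines for 2-fold, the number of genes in brackets. No dot outside the members and the P450 list, which contains CYP1B1, passes 2-fold, and the medians run from -0.18 (members) to 0.22 (chaperone complex and turnover).

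In the authors' deposited table, whose test is not stated and had no replicate, the log2 fold changes were -3.29 for AHRR, -2.05 for CYP1B1, 0.521 for CYP1A1 and 0.547 for PTGES3. The p-values and FDR that the authors deposited are not read here, since each group had a single library.

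Words of 7 bases in the 3′ UTR had been picked earlier on these same libraries because they were more frequent among lower genes (AACTCCA or ACTCCAA) or higher genes (CCTAAGA or CTAAGAA), so they support nothing here. On the sense strand of the annotated 3′ UTRs, CYP1B1 had 2 matches to the first pair and 1 to the second, AHRR had 0 and 1, and AHR had 1 and 2. The 2 words of each pair overlap in sequence, so 1 longer site can count as 2 matches. ARNT had 0 and 1, ARNT2 had 1 and 0, and PTGES3, TIPARP, CYP1A1 and ALDH3A1 had none of either. Of 11293 compared genes with an annotated 3′ UTR, 15.9% carried a word of the first pair and 16.3% one of the second.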

How the data were processed

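Poly(A) RNA of 2 libraries was measured. Per the labels' protocols, oligo(dT) beads selected mRNA before NEBNext Ultra library preparation. RSEM, HISAT2, StringTie 1.3.1, fastp 0.18.0 and the build GRCh38 are listed in the submitters' processing notes. Their roles, the annotation and the strand setting were not stated there. The deposited counts are expected counts per gene, made by the authors and not normalized, and 11.4% (knockdown) and 12.0% (control) were not whole. The deposited FPKM values were normalized by the authors for length and depth, per the file headers. The log2 fold change the authors deposited is the ratio of FPKM with 0 set to 0.001, which held within 0.001 for all 20289 genes. For the deposited p-values and FDR the authors' test is not named. The control columns match the control label, and the other pair, headed Si-179, was taken as the knockdown from the table's title. Another 2 columns, 1 per library and headed as means, were not used.

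Counts were rounded, and library totals were scaled by TMM factors of 0.983 (knockdown) and 1.017 (control) (edgeR 4.0.16, run under R 4.3.3). The log2 ratio was taken on CPM with 0.5 added, which pulls low genes toward 0, and folds without it. A gene was compared at a mean of at least 50 counts and counted as lower or higher at 2-fold. Intervals are 95% exact (Clopper-Pearson), cover counting error only, and say nothing of the spread between cultures, since each group has 1 library. They treat reads as independent. PCR copies are not independent molecules, so the intervals may also be too narrow for counting error. The steps were tested on simulated counts with known changes and counting noise only. That test held no spread between cultures and no PCR copies, so it says nothing of either. Other settings were library totals alone, DESeq2 1.42.0 size factors, 0.1 or 2 CPM added, FPKM with 0.01 or 0.1 added, floors of 0, 10 or 200 counts, and sizes of 1.5-fold or 3-fold.

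The members and lists were chosen with earlier results of these data known. Named are all members, list genes past 2-fold with up to 4 more of the largest ratios and others for their role, overlapping and neighbouring genes, and the 3 nearest ratios to AHRR and CYP1B1. The genes at 0 counts, KYNU, TDO2, IDO1, CYP1A2, IL1B, VAV3 and IL6 were named after their values were seen. Spans and 3′ UTRs (the transcript with the longest coding sequence per gene) are from GENCODE 29. Other steps used matplotlib 3.10.9, scipy 1.17.1, pandas 2.3.3 and numpy 2.4.6 with Python 3.11.15.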

Additional observations from a re-analysis of the deposited data

How the results depend on the processing

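No paired analysis was possible because each group has 1 library, and for the same reason no replicate could be left out. Each member kept the sign of its log2 ratio in the 6 settings of scaling, pseudocount and unit, with AHRR between -3.22 and -1.98, CYP1B1 between -2.04 and -1.94 and CYP1A1 between 0.52 and 0.75. AHRR was -1.98 with 2 CPM added, since its level is near that amount. A floor of 200 counts left 1 member at least 2-fold lower, because AHRR has a mean of 125.5 counts. A size of 1.5-fold made 2 members higher in TMM-scaled counts, PTGES3 and CYP1A1. In FPKM with 0.01 added both fell short of 1.5-fold, at log2 ratios of 0.547 (PTGES3) and 0.521 (CYP1A1). With library totals alone PTGES3 also fell short, at 0.545. Over all compared genes, the number at least 2-fold lower was 118 with 2 CPM added and 111 with a floor of 200 counts. At 1.5-fold it was 813 lower and 702 higher, and at 3-fold 33 lower and 37 higher. Counts of higher genes under other settings, and the settings of named genes that are no members, were chosen after seeing the data. Library totals alone moved the median of all compared genes by -0.05 and the other settings by less. The 7 list medians stayed within their intervals over members in all 63 recomputations. Those intervals were wide beside the shifts between settings, such as -0.69 to 0.30 for the bHLH-PAS relatives and -0.08 to 0.29 for the chaperone and turnover genes. Staying inside them was therefore a weak check. The depth limits AHRR and ALDH3A1 most, at 19 and 11 counts in the knockdown library.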
